A study of Mus musculus with 11 samples.

Results

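The GATA factors and their cofactor were followed across the series as 6 genes, of which 5 are GATA transcription factors (Gata1, Gata2, Gata3, Gata4 and Gata6) and 1 is Zfpm1, which encodes FOG1. They were listed by name, and they are 6 of 48952 genes in the bulk count table and 6 of 32285 genes in each single-cell matrix. The series used mouse naive extra-embryonic endoderm (nEnd), an embryonic stem cell (ESC)-derived culture model of primitive endoderm kept on mouse embryonic fibroblast feeders in RACL, a basal medium with Activin A, the GSK3 inhibitor CHIR99021 and LIF. For bulk RNA-seq, an untreated OCT4-mCherry protein reporter nEnd line was stained for the endoderm surface receptor PDGFRA and sorted into cells positive for PDGFRA alone (Pdgfra+), for both PDGFRA and the reporter (DP) or for the reporter alone (Oct4+), with 3 libraries for each. For single-cell RNA-seq, homozygous Oct4-LOF nEnd (cell line label EPUc), in which 4-hydroxytamoxifen (4OHT) induces loss of Oct4, were sorted for PDGFRA, grown without 4OHT (-4OHT, labelled no treatment) or with it (+4OHT) and then kept in RACL alone, and each condition was 1 library of sorted DAPI-negative cells. Both single-cell libraries carry the inducible allele, all 9 bulk libraries carry the reporter, and each model is a single cell line.

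GATA factors bind a short DNA core that gives the family its name, through paired zinc fingers. GATA4 and GATA6 are factors of the endoderm, and GATA6 is needed to specify primitive endoderm in the blastocyst. GATA2 and GATA3 act in trophoblast and in other lineages, GATA1 is the erythroid and megakaryocyte factor, and FOG1 contacts the N-terminal finger of a GATA protein and brings in the NuRD chromatin remodelling complex.

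The fingers are conserved between GATA factors. They are shown because they carry the contact with FOG1, and because reads of one member could be taken for another where sequences are alike. Each run is 75 coding bases, 5′ to 3′ on the transcribed strand, from the first to the last of the 4 zinc-binding cysteines, whose codons are in capitals. All are from GRCm38 with GENCODE M21 models and each lies within 1 coding exon. The N-terminal fingers of 4 members follow, of Gata1 (chrX:7961984-7962058, minus strand, exon 4), Gata2 (chr6:88202430-88202504, plus strand, exon 4), Gata3 (chr2:9868821-9868895, minus strand, exon 4) and Gata4 (chr14:63204649-63204723, minus strand, exon 3).
Gata1 N-terminal finger: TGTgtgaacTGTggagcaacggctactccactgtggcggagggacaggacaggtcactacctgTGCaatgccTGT
Gata2 N-terminal finger: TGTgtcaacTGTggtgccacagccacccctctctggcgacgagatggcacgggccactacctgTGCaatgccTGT
Gata3 N-terminal finger: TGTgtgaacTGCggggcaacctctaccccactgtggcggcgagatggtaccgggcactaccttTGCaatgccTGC
Gata4 N-terminal finger: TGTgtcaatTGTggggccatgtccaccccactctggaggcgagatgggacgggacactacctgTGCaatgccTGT

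The C-terminal fingers of Gata2 (chr6:88204610-88204684, exon 5) and Gata3 (chr2:9863119-9863193, exon 5) encode the same 25 of 25 residues with 60 of 75 bases identical.
Gata2 C-terminal finger: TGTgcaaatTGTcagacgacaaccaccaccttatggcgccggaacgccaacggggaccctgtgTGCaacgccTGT
Gata3 C-terminal finger: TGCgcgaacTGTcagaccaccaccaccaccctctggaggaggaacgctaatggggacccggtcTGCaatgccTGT

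Between all 15 pairs of the 6 GATA genes with these fingers (Gata5 included), 72.0% to 86.7% of the bases were identical in the N-terminal finger and 68.0% to 81.3% in the C-terminal one. Gata4 and Gata6 shared 24 of 25 residues of the C-terminal finger, and Zfpm1 held no finger of this spacing. Over the whole reference transcripts, the longest run of identical bases between any pair of the 6 members was 11 to 24 bases. The encoded proteins are 413 (GATA1), 480 (GATA2), 443 (GATA3), 442 (GATA4), 589 (GATA6) and 995 (FOG1) residues long. The genes lie at chrX:7959260-7978071 (Gata1), chr6:88193891-88207032 (Gata2), chr2:9857078-9890034 (Gata3), chr14:63198922-63271692 (Gata4), chr18:11052064-11085635 (Gata6) and chr8:122282141-122337251 (Zfpm1). Gata3 overlaps 3 annotated genes (Gm13256, 4930412O13Rik and 9230102O04Rik) that had 0 reads in the 9 bulk libraries, while Gata6 overlaps 1010001N08Rik and Zfpm1 a read-through model, Gm20388, neither of which is a row of the bulk table, so reads of these pairs cannot be told apart there.

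RefSeq start-site windows of 300 bases (GRCm38.p6) were given for 4 of the 6 members, as 5 windows. Both strands were searched for AGATAA, for AGATAG, for TGATAA and for TGATAG. Only the Gata3 window held one of them, a TGATAG, and 29.8% of 32851 windows of all genes held at least 1 of the 4.

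In bulk, the libraries held 8019631 to 11642571 counts, and 14185 genes passed the filter on low counts. Of the 6 members, 5 passed and Gata1 did not. Levels are CPM, reads scaled to the size of their library, with edgeR's TMM scaling. A call needed more than 1.5 log2 units of difference in either direction and, in edgeR's quasi-likelihood test, a Benjamini-Hochberg adjusted p below 0.05 over all genes tested. The study calls its replicates biological without saying whether each was a culture and sort of its own, so the p-values measure only the spread between these samples. In sorted populations, a smaller share of cells with a transcript and less of it per cell cannot be told apart.

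The endoderm factors Gata4 and Gata6 and the cofactor gene Zfpm1 formed one pattern. All 3 were high in Pdgfra+ and DP cells and low in Oct4+ cells. The 3 Pdgfra+ libraries had Gata4 at 728, 595 and 705 CPM, the DP libraries at 662, 536 and 462 CPM, and the Oct4+ libraries at 8.53, 17.9 and 4.32 CPM. For Gata6 the Pdgfra+ libraries gave 456, 341 and 357 CPM, DP gave 452, 395 and 410 CPM, and Oct4+ gave 10.5, 9.17 and 11.8 CPM. For Zfpm1 the values were 82.4, 97.1 and 78.6 CPM in Pdgfra+, then 87.4, 87.4 and 86.8 CPM for DP, and 10.4, 19.4 and 11.2 CPM for Oct4+. For each of the 3 genes, every Oct4+ library lay below every library of the other populations, as for 62.6% of all genes (in either direction) between DP and Oct4+ and 69.3% between Oct4+ and Pdgfra+, and the Pdgfra+ and DP libraries overlapped.

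**Figure D1:**
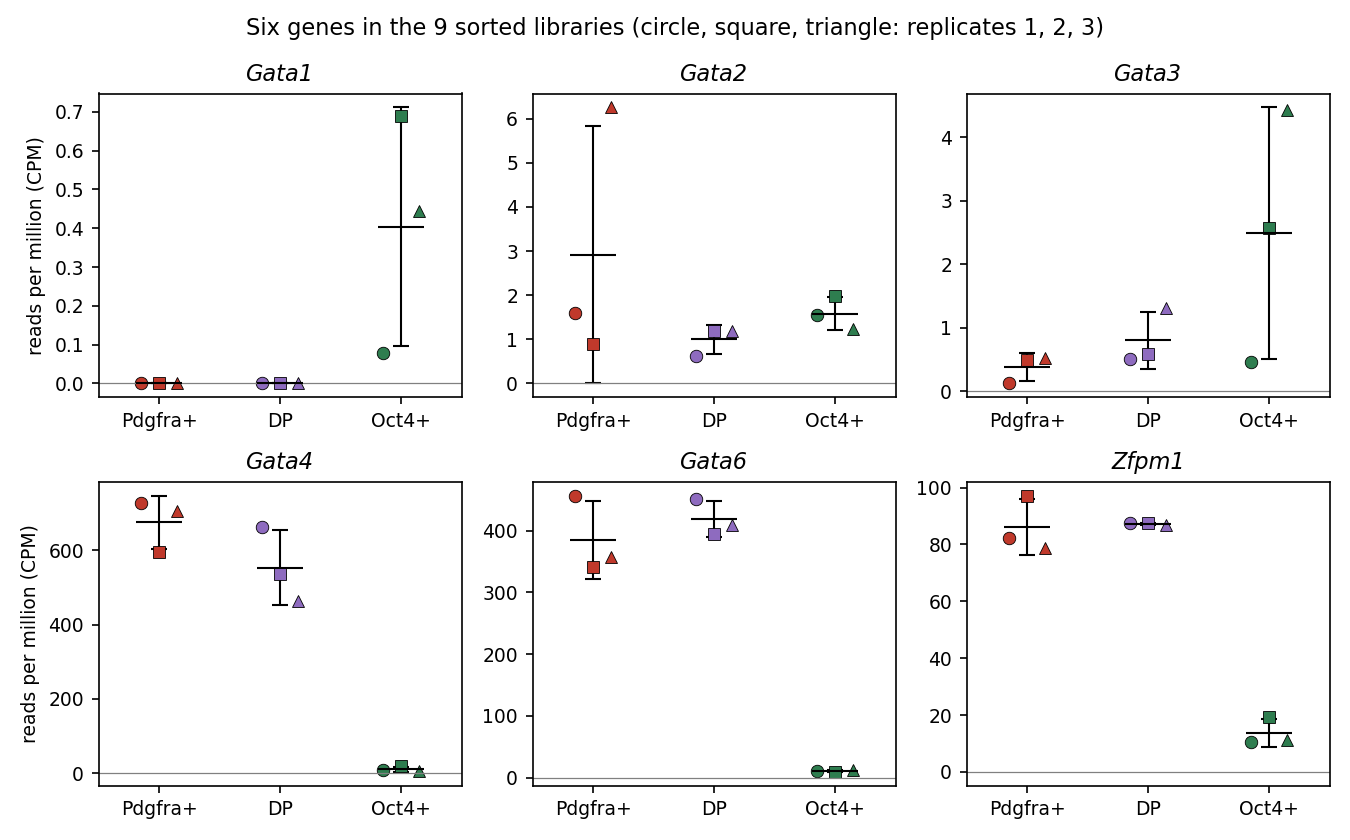
CPM (y axis, one scale per gene) of the 6 genes in each bulk library by sorted population (x axis); points are libraries, horizontal bars the mean and vertical bars the SD of 3 libraries. Gata4, Gata6 and Zfpm1 sit high in Pdgfra+ and DP and low in Oct4+, whereas Gata1, Gata2 and Gata3 stay under 7 CPM in all 9 libraries.

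The DP population tests whether cells that keep OCT4 protein beside PDGFRA differ in these factors from cells without it. None of the 5 tested members was called between DP and Pdgfra+, where 3.89% of all genes were called by edgeR's quasi-likelihood test (no member by DESeq2 either, and 1 of 5, Gata2, at an unadjusted p below 0.05 by each tool). The log2 difference, DP against Pdgfra+, was 0.12 for Gata6 (95% interval -0.20 to 0.45, adjusted p = 0.632), -0.29 for Gata4 (-1.08 to 0.50, adjusted p = 0.644) and 0.02 for Zfpm1 (-0.45 to 0.49, adjusted p = 0.963). In the 6 libraries of these populations alone, the Gata4 difference was -0.27 with an SE of 0.160, against 0.355 in the fit of all 9 libraries. With the replicate number as a block in those 6, which pairs the samples, it was -0.28 with an SE of 0.127 (edgeR adjusted p = 0.157). The same block in all 9 libraries gave an SE of 0.340. DP was the lower one in each of the 3 same-numbered pairs. In the fit of all 9 libraries Pou5f1, which encodes OCT4, was 3.72 log2 units higher in DP (edgeR adjusted p = 0.00725). Pdgfra, the other sort gene, differed by -0.31 (edgeR adjusted p = 0.598).

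Between DP and Oct4+ cells, 3 of the 5 tested members were called, all higher in DP, where 27.7% of all genes were called and 13.1% were called higher. The gap was widest for Gata4, at 5.75 on the log2 scale (SE 0.44, 53.8-fold, edgeR adjusted p = 7.73e-06). Gata6 rose by 5.32 (SE 0.18, 39.9-fold, edgeR adjusted p = 2.9e-07) and Zfpm1 by 2.67 (SE 0.23, 6.39-fold, edgeR adjusted p = 1.39e-05). The fold was smaller for the cofactor than for the GATA factors, with a remaining mean of 13.7 ± 5.0 CPM (SD, n = 3) in Oct4+ cells, and this difference between genes was not tested.

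Between Oct4+ and Pdgfra+ cells, 4 of the 5 tested members were called, where 32.0% of all genes were called, 14.7% lower in Oct4+ and 17.3% higher. Gata4 fell by 6.04 on the log2 scale (65.6-fold, adjusted p = 4.56e-06), Gata6 fell by 5.20 (36.7-fold, adjusted p = 2.73e-07) and Zfpm1 fell by 2.66 (6.30-fold, adjusted p = 1.03e-05). The 3 calls held in every alternative fit and without any single library, in this comparison and against DP.

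**Figure D2:**
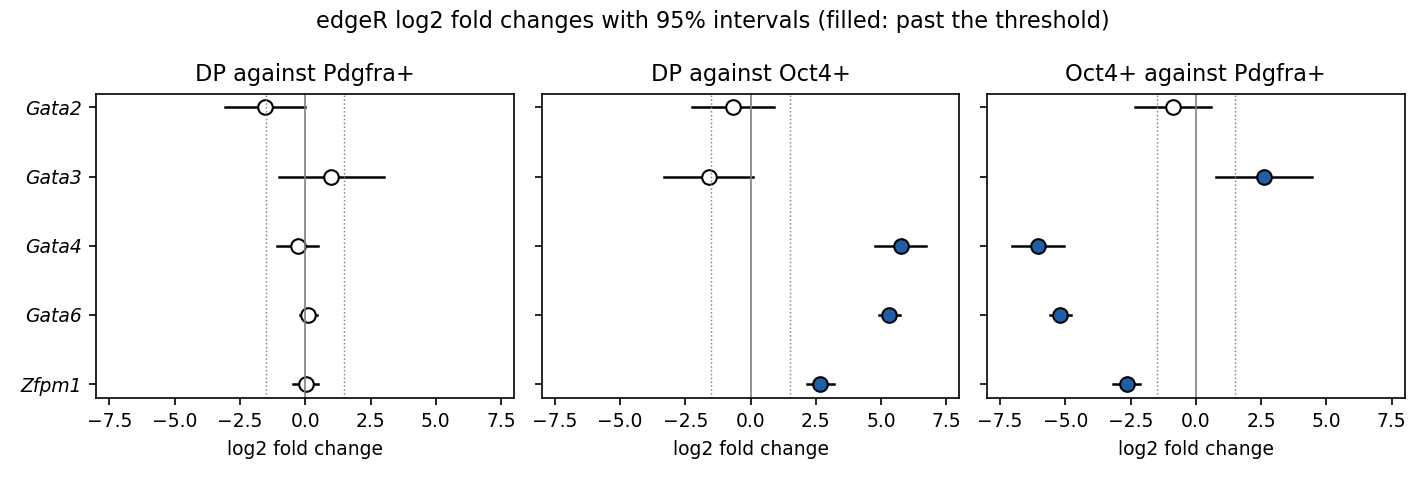
Log2 fold change (x axis) of the 5 tested members in the 3 bulk comparisons, with 95% intervals from edgeR; dotted lines mark 1.5 in either direction and filled points passed both thresholds. Gata4, Gata6 and Zfpm1 lie far from 0 in both comparisons with Oct4+ and near 0 between DP and Pdgfra+.

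The trophoblast factors Gata2 and Gata3 were present at traces in every population. Gata2 reached 1.59, 0.897 and 6.26 CPM in the Pdgfra+ libraries, 0.623, 1.18 and 1.18 CPM in those of DP, and 1.55, 1.97 and 1.22 CPM in those of Oct4+. The third Pdgfra+ library stood well above the other 8, and no comparison of Gata2 passed. The difference between Oct4+ and Pdgfra+ was -0.88 on the log2 scale (adjusted p = 0.26) and turned to 0.33 (adjusted p = 0.603) without that library. The difference between DP and Pdgfra+ was -1.54 (adjusted p = 0.195), and -0.30 (adjusted p = 0.813) without it.

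Gata3 reached 0.122, 0.498 and 0.522 CPM in the Pdgfra+ libraries, 0.499, 0.59 and 1.31 CPM in those of DP, and 0.465, 2.56 and 4.43 CPM in those of Oct4+. Its Oct4+ libraries spread from 0.465 to 4.43 CPM, and the lowest lay within the Pdgfra+ range. Gata3 was called higher in Oct4+ than in Pdgfra+, by 2.61 on the log2 scale (SE 0.83, adjusted p = 0.0185), on 72 reads against 11. The call was lost without the third Oct4+ library (1.88, adjusted p = 0.0759) or without the first Pdgfra+ library (2.25, adjusted p = 0.0618). Against DP, Gata3 was not called (-1.61, adjusted p = 0.0997) except without the first Oct4+ library (-2.10, adjusted p = 0.0168).

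The erythroid factor Gata1 had 12 reads in all 9 libraries together. They lay in the 3 Oct4+ libraries, as 1, 7 and 4 reads (0.0775, 0.690 and 0.443 CPM), and DP and Pdgfra+ had 0 reads, which allows up to 0.124 and 0.108 CPM over each group. Gata1 was below the filter on low counts and has no main test. With no filter, edgeR called it in both comparisons with Oct4+ (adjusted p = 0.0341 against DP and 0.022 against Pdgfra+) and DESeq2 in neither.

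Levels of different genes can be compared only per length. Per kilobase of exon, the order in Pdgfra+ was Gata4 (173 ± 18.2 CPM per kb), Gata6 (59.1 ± 9.6), Zfpm1 (24.6 ± 2.79), Gata2 (0.54 ± 0.541), Gata3 (0.0957 ± 0.0564) and Gata1 (0; SD, n = 3 for each). DP had the same order for the first 3, with 142 ± 25.9, 64.3 ± 4.56 and 24.9 ± 0.103 CPM per kb, and in both populations the ranges of these 3 genes over libraries did not meet. In Oct4+ cells the order at the top was another one. Zfpm1 stood at 3.9 ± 1.43, Gata4 at 2.63 ± 1.79 and Gata6 at 1.61 ± 0.199 CPM per kb, and the ranges of Gata4 overlapped those of both neighbours (1.11 to 4.6 for Gata4, 1.41 to 1.81 for Gata6, 2.97 to 5.54 for Zfpm1).

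Across the 9 libraries, log2 CPM of Gata4, Gata6 and Zfpm1 ran together, with Pearson's r of 0.978 (Gata4 and Gata6), 0.989 (Gata4 and Zfpm1) and 0.975 (Gata6 and Zfpm1). The points share 3 sorted populations, so r mostly repeats the gap to Oct4+. Among genes with a mean of at least 10 CPM, the most similar to Gata4 were Meis3 (r = 0.997), D630045J12Rik and the basement membrane collagen gene Col4a2. Those most similar to Gata6 were Asah1 (r = 0.998), Gdpd5 and Rpn2, and those most similar to Zfpm1 were Rac1 (r = 0.998), Rnpepl1 and Gsn. Proser3 was nearest to Gata2 (r = 0.922), and Lrrc57 to Gata3 (r = 0.936). With Spearman's rank correlation the nearest 3 genes were others for each of the 5 members except for Proser3 beside Gata2.

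The remaining GATA-type zinc finger and FOG genes did not share one direction. Of 7 genes, 5 were tested. None of them was called between DP and Pdgfra+, beside 3.89% of all genes. In each comparison with Oct4+, 1 was called higher and 1 lower, beside 27.7% of all genes for DP and 32.0% for Pdgfra+. The higher one in DP was Gata5, the third of the endoderm GATA genes, with 5.74, 1.53 and 6.27 CPM in DP against 0.388, 0.887 and 0 CPM in Oct4+ (3.34 on the log2 scale, adjusted p = 0.00703). Trps1, a repressor with a single GATA-type finger, went the other way, from 29.3 CPM in Oct4+ to 0.898 CPM in DP (-5.00, adjusted p = 2.9e-05) and 0.281 CPM in Pdgfra+.

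Few genes of NuRD, through which FOG1 acts, changed past the size threshold. Of 14 genes tested, 1 was called between DP and Pdgfra+, 1 between DP and Oct4+ and 3 between Oct4+ and Pdgfra+, against backgrounds of 3.89%, 27.7% and 32.0%. A further 7 between DP and Oct4+ and 5 between Oct4+ and Pdgfra+ had an adjusted p under 0.05 with a smaller change, among them Mbd2, Rbbp4, Hdac1, Hdac2 and Mbd3 in both. Over all genes tested, 56.2% and 63.2% had an adjusted p under 0.05 there, called genes included. The median log2 change of the list in the 3 comparisons was -0.15, -0.08 and 0.13, beside 0.02, -0.04 and 0.01 over all genes tested. Chd5, an ATPase subunit best known from neurons, was called in all 3, with means of 0.361 (Pdgfra+), 1.85 (DP) and 19.1 CPM (Oct4+). Its call between DP and Pdgfra+ was lost without DP replicate 2 or 3 or Pdgfra+ replicate 2 or 3, where no gene of the list was called. Chd3 (-2.05) and the histone-binding subunit Rbbp7 (-1.67) were called lower in Oct4+ than in Pdgfra+. Chd4, the main ATPase of the complex, was at 436, 389 and 418 CPM and passed in none of the 3.

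Genes that work with GATA4 and GATA6 in endoderm followed them. All 21 listed genes were tested, among them Pdgfra, on which the cells were sorted. All 21 were called higher in DP than in Oct4+, beside 13.1% of all genes. Their median on the log2 scale was 5.53, beside -0.04 over all genes tested. Between Oct4+ and Pdgfra+, 20 of 21 were called lower in Oct4+, beside 14.7% of all genes, with a median of -5.08 beside 0.01. The largest differences from Oct4+ were those of the basement membrane genes Lama1 (7.15 higher in DP), Col4a2 (7.11) and Col4a1 (7.05). The transcription factors Sox17 (5.83), Foxa2 (5.53) and Hnf4a (4.16) were called too. The exception was Apoe (-1.03, adjusted p = 0.00054), which passed on p and not on size. Between DP and Pdgfra+ the list's median was -0.36, beside 0.02 over all genes tested, and 2 of 21 were called, beside 3.89%. These were the endocytic receptor genes Amn (2.02, edgeR adjusted p = 0.029) and Cubn (1.91, edgeR adjusted p = 0.046). Each of these calls was lost on leaving out any of 5 of the 6 DP and Pdgfra+ libraries (all but the first DP library).

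Genes that work with GATA2 and GATA3 in trophoblast split. Of 15 listed genes, 12 were tested. Between DP and Oct4+, 9 were called, 7 higher in DP and 2 lower, beside 27.7% of all genes called, 13.1% higher and 14.6% lower. Between Oct4+ and Pdgfra+, 9 were called, 3 higher in Oct4+ and 6 lower, beside 32.0%. Those higher in DP than in Oct4+ included the keratins Krt8 (3.38) and Krt18 (3.32), which endoderm also uses, and Tfap2c, a trophoblast and pluripotency factor, was lower in DP (-3.47). Between DP and Pdgfra+, 1 was called, Tfap2c, higher in DP by 2.57 (adjusted p = 0.039), at 1.56 against 0.254 CPM, beside a background of 3.89%. That call was lost without DP replicate 2 or 3 or Pdgfra+ replicate 2 or 3. Elf5, Hand1 and the trophoblast giant cell gene Prl3d1 were too low to be tested.

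Blood genes that work with GATA1, GATA2 and FOG1 were mostly under the filter on low counts. Of 23 listed, 7 passed it, and 8 to 9 were at 0 in an Oct4+ library, 12 to 13 in a DP library and 14 to 15 in a Pdgfra+ library. More genes were also detected in Oct4+ over the whole table of 48952. An Oct4+ library had reads for 21748 to 22321 genes, a DP library for 18976 to 19342 and a Pdgfra+ library for 18715 to 19139. Of the 7 tested, 1, 1 and 3 were called in DP against Pdgfra+, DP against Oct4+ and Oct4+ against Pdgfra+, beside 3.89%, 27.7% and 32.0% of all genes. These were Spi1 (4.99 higher in DP than in Pdgfra+, from means of 1.56 and 0.0332 CPM), Runx1 (137 CPM in DP cells against 84.2 CPM in Pdgfra+ and 3.1 CPM in Oct4+) and Kit (2.44 lower in Oct4+ than in Pdgfra+). The Spi1 call was lost without DP replicate 2 or 3 or any 1 of the Pdgfra+ replicates. The globin genes, Ptprc and Pf4 were at or near 0 in every population.

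Some markers of other cells differed between the populations. Of 10 fibroblast genes, the cell type of the feeders, 7 were tested. Between DP and Oct4+, 4 were called lower in DP and 1 higher, beside 14.6% and 13.1% of all genes. Between Oct4+ and Pdgfra+, 5 were called higher in Oct4+ and 1 lower, beside 17.3% and 14.7%. Their summed level was 32.3 to 181 CPM in Oct4+, 15.2 to 59.1 CPM in DP and 50.8 to 142 CPM in Pdgfra+. Of 8 endothelial genes, 5 were tested. Between DP and Oct4+, 3 were called higher in DP, beside 13.1% of all genes. Between Oct4+ and Pdgfra+, 2 were called lower in Oct4+, beside 14.7%. The summed level of the 8 was 18.3 to 38.2 CPM in Oct4+, 399 to 832 CPM in DP and 1158 to 1903 CPM in Pdgfra+. Flt1 made up most of it. The part of fibroblast or endothelial RNA in the values of Gata1, Gata2 and Gata3 was not tested.

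In the single-cell libraries, the induced loss of Oct4 was read first. Pou5f1 was at 40.2 CPM in -4OHT (4013 unique molecular identifiers, UMIs) and 2.74 CPM in +4OHT (258 UMIs). The sources used here do not say whether the 3′ reads come from the deleted stretch. The libraries held 6896 barcodes (-4OHT) and 7283 barcodes (+4OHT), and 5430 and 6665 cells were used, with a median of 17403.5 and 12480 UMIs per cell. The doublet caller marked 166 barcodes in -4OHT and 0 in +4OHT, where it did not work, so doublets remain among the +4OHT cells. Both libraries shared 21 barcodes. There is 1 library per condition, so no test was made, and the 95% intervals below cover counting error only.

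Cells were grouped by clustering on genes that did not include the 6 members, and clusters were named from marker genes. Endoderm-like cells (clusters 0, 4, 5, 7 and 9) numbered 7781, with 1394 in -4OHT and 6387 in +4OHT. Epiblast-like cells (clusters 1 and 2) numbered 3832, all in -4OHT, so the label nEnd covers cells with few endoderm markers. Of the 9 endoderm markers, 3 were at 20 CPM or more in cluster 1 and 1 in cluster 2. Sox17 was at 2.34 CPM in epiblast-like and 424 CPM in endoderm-like cells, but a level under 20 CPM was required for the name epiblast-like. Smaller groups were two-cell-like (124 cells), trophectoderm-like (255), fibroblast-like (55) and an unnamed cluster of 48 cells with a median of 3588 UMIs. The trophectoderm-like cluster had 4 of 9 trophectoderm markers at 20 CPM or more (Cdx2, Ascl2, Tfap2c and Krt7), Elf5 at 0.22 CPM and Hand1 at 3.35 CPM, and also had 7 endoderm and 6 epiblast markers at that level. Its 37 -4OHT cells had only Krt7 at that level, so the name rests on the 218 +4OHT cells.

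Gata4, Gata6 and Zfpm1 lay almost wholly in endoderm-like cells. These were 64.3% of the cells and held 97.5% of Gata4 UMIs, 96.8% of Gata6 UMIs and 92.3% of Zfpm1 UMIs. Summed over both libraries, Gata6 was at 309 CPM in endoderm-like cells (interval 306 to 312) and at 6.07 CPM in epiblast-like cells (5.53 to 6.66). Gata4 was at 155 CPM against 2.14 CPM, and Zfpm1 at 72.6 CPM against 5.25 CPM. All epiblast-like cells were in -4OHT. The endoderm-like cells of that library alone had Gata6 at 227 CPM, Gata4 at 115 CPM and Zfpm1 at 37.3 CPM. As in bulk, the gap between endoderm and Oct4-expressing cells was narrower for the cofactor than for the GATA factors.

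At equal depth, the share of endoderm-like cells with a UMI repeated the order of the levels, while in epiblast-like cells Zfpm1 came just above Gata6. Thinned to 7500 UMIs per cell (6970 of 7781 endoderm-like and 3707 of 3832 epiblast-like cells, the rest being shallower), 82.4% of endoderm-like cells had a Gata6 UMI, 66.2% a Gata4 UMI and 39.7% a Zfpm1 UMI. In the endoderm-like cells of -4OHT alone the shares were 73.2%, 55.9% and 25.1%. In epiblast-like cells, all of -4OHT, they were 3.43%, 2.00% and 3.88%. Unthinned, the endoderm-like shares were 90.7%, 81.0% and 56.1% at a median of 12647 UMIs, and the epiblast-like ones 6.58%, 3.97% and 9.45% at 18723.5 UMIs. Free RNA was not measured and its part in the epiblast-like shares was not tested.

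In thinned endoderm-like cells, UMIs of the members met in the same cells about as often as their separate shares would give. Gata4 and Gata6 were both seen in 55.5% of cells (54.5% from the product of the shares), Gata6 and Zfpm1 in 33.0% (32.7%) and Gata4 and Zfpm1 in 27.2% (26.3%). A further 6.94% of these cells showed neither Gata4 nor Gata6 at this depth.

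**Figure D3:**
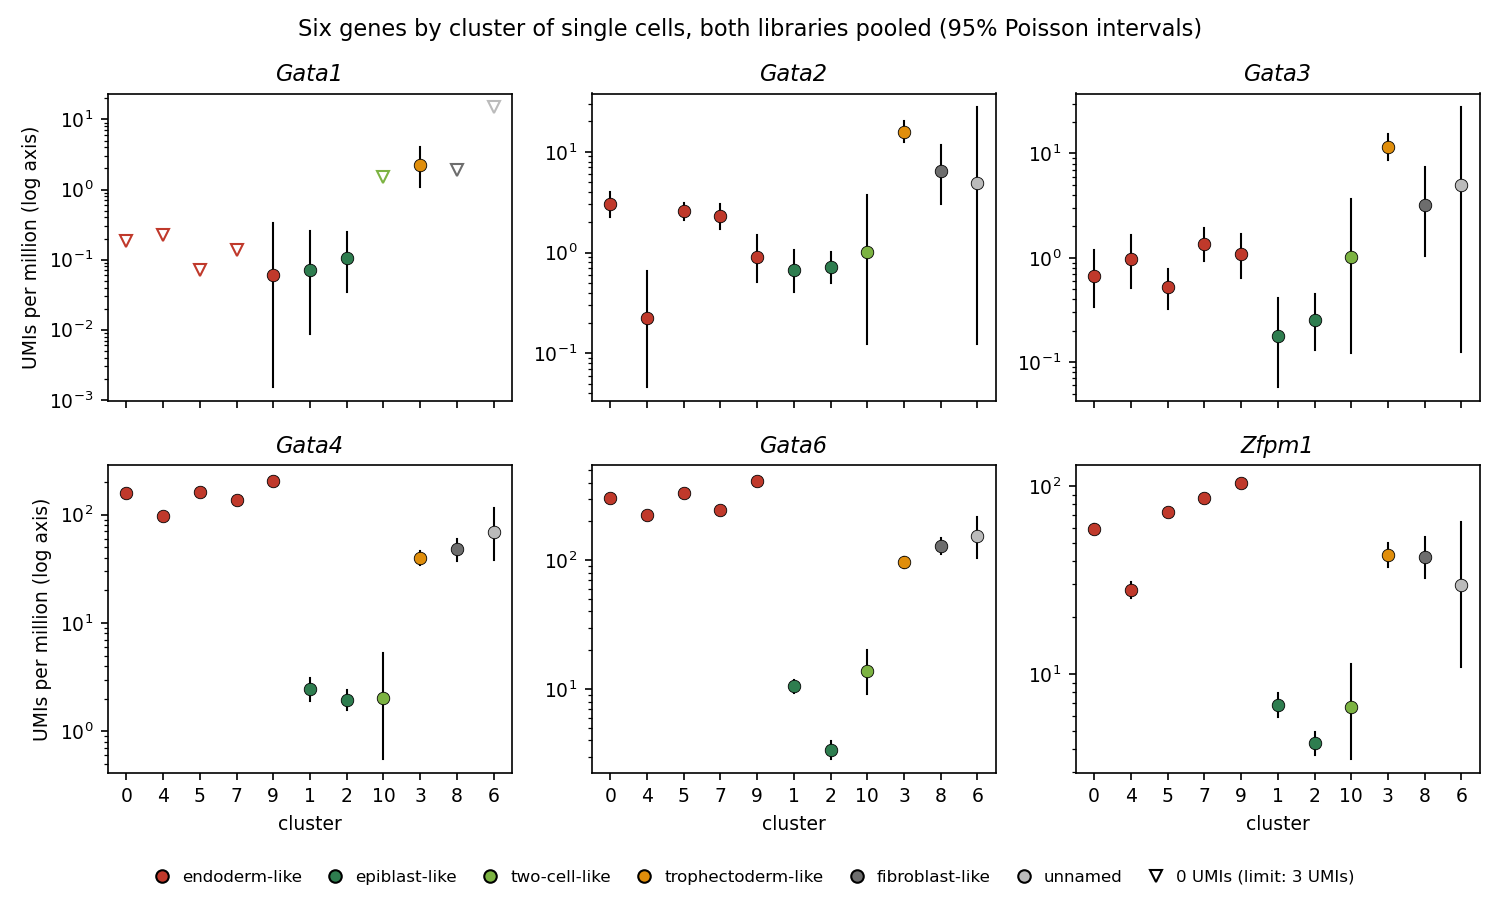
CPM (log y axis) of the 6 genes in each cluster of single cells (x axis), UMIs of both libraries summed, with 95% Poisson intervals; triangles mark clusters with 0 UMIs, drawn at the limit of 3 UMIs. Gata4, Gata6 and Zfpm1 are highest in cluster 9 and lowest in the epiblast-like and two-cell-like clusters, and the measured levels of Gata1, Gata2 and Gata3 are highest in cluster 3, the trophectoderm-like one.

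Within endoderm-like cells the members varied by cluster. Cluster 9, led by the gastrokine genes Gkn1 and Gkn2, was highest for each of the 3, with Gata6 at 414 CPM, Gata4 at 205 CPM and Zfpm1 at 104 CPM. Cluster 4, led by the endocytic receptor genes Amn and Cubn, was lowest for each in the summed libraries, with 222, 98.1 and 28.0 CPM. All but 1 of its cells were in -4OHT. Within -4OHT alone it stayed lowest for Gata4 and Zfpm1, but not for Gata6. Gata6 was there at 163 CPM in cluster 7 (99 cells) and 220 CPM in cluster 0, against 222 CPM in cluster 4. Taken as a ratio of these sums, the span from lowest to highest cluster was widest for Zfpm1, and taken in CPM it was widest for Gata6. The lowest cluster was almost all -4OHT and the highest almost all +4OHT, so cluster and library cannot be told apart in these spans. Gata2 was at 3.05, 2.56 and 2.32 CPM in clusters 0, 5 and 7, at 0.901 CPM in cluster 9 and at 0.224 CPM in cluster 4 (3 UMIs, interval 0.0462 to 0.655).

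The Amn/Cubn cluster held 736 of the 1394 endoderm-like -4OHT cells and 1 +4OHT cell, so it can be compared within the -4OHT library. The other 658 endoderm-like -4OHT cells had Zfpm1 at 52.4 CPM against 28.0 CPM in the Amn/Cubn cluster (ratio 1.87, interval 1.63 to 2.16) and Gata4 at 141 against 98.2 CPM (1.44, 1.33 to 1.56). Gata6 was at 235 against 222 CPM, and the interval of the ratio (0.9996 to 1.12) held 1. Pou5f1 ran the opposite way, at 3.61 against 20.7 CPM.

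Epiblast-like cells held low and unequal traces. Gata6 was at 10.6 CPM in cluster 1 and 3.38 CPM in cluster 2, and Zfpm1 at 6.87 and 4.28 CPM. Gata4 was at 2.46 and 1.96 CPM. In two-cell-like cells Gata6 was at 13.8 CPM (9.09 to 20.1) and Gata4 at 2.04 CPM (4 UMIs).

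Fibroblast-like cells had Gata6 at 129 CPM, Gata4 at 47.8 CPM and Zfpm1 at 42.1 CPM. They also had 9 of 9 endoderm markers at 20 CPM or more and a median of 28387 UMIs, the highest of any cluster, and the part of doublets in these values was not tested.

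Each endoderm member had a higher level in the +4OHT library than in the -4OHT library. Over all cells, Gata6 was at 54.9 CPM in -4OHT and 317 CPM in +4OHT (ratio 5.77, interval 5.61 to 5.94), Gata4 at 26.8 and 159 CPM (5.91, 5.67 to 6.16) and Zfpm1 at 12.5 and 79.3 CPM (6.36, 5.99 to 6.76). The epiblast-like cells make up 3832 of 5430 cells in -4OHT and none in +4OHT, so these ratios carry the change in cell make-up. Pdgfra, the sort gene of the starting cells of both conditions, had a ratio of 5.75.

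Restricted to endoderm-like cells, the ratios were smaller. Gata4 was at 115 CPM in -4OHT and 165 CPM in +4OHT (1.44, 1.38 to 1.5), and Gata6 at 227 and 329 CPM (1.45, 1.40 to 1.49). Zfpm1 had the widest gap of the 3, at 37.3 and 81.2 CPM (2.18, 2.02 to 2.34), and Pdgfra had a ratio of 1.37. In thinned cells the share with a UMI moved the same way, from 55.9% to 68.5% for Gata4, 73.2% to 84.4% for Gata6 and 25.1% to 43.0% for Zfpm1. Most endoderm-like cells were in cluster 4 in -4OHT and in clusters 5, 9, 7 and 0 in +4OHT. Without the Amn/Cubn cluster the ratio was 1.17 (1.10 to 1.24) for Gata4, 1.40 (1.33 to 1.46) for Gata6 and 1.55 (1.41 to 1.71) for Zfpm1.

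Cluster by cluster, Gata6 kept its gap best. Its ratio was 1.46 in cluster 0, 1.31 in cluster 5, 1.54 in cluster 7 and 1.2 in cluster 9, and only the last interval (0.9997 to 1.45) held 1. For Gata4 the 4 ratios were 1.14, 1.17, 1.12 and 1.02, and the intervals in clusters 7 (0.940 to 1.33) and 9 (0.803 to 1.32) held 1. For Zfpm1 they were 1.31, 1.69, 1.12 and 1.0, and those in clusters 7 (0.905 to 1.41) and 9 (0.717 to 1.44) held 1. Cluster 9 had only 37 -4OHT cells and cluster 7 only 99.

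**Figure D4:**
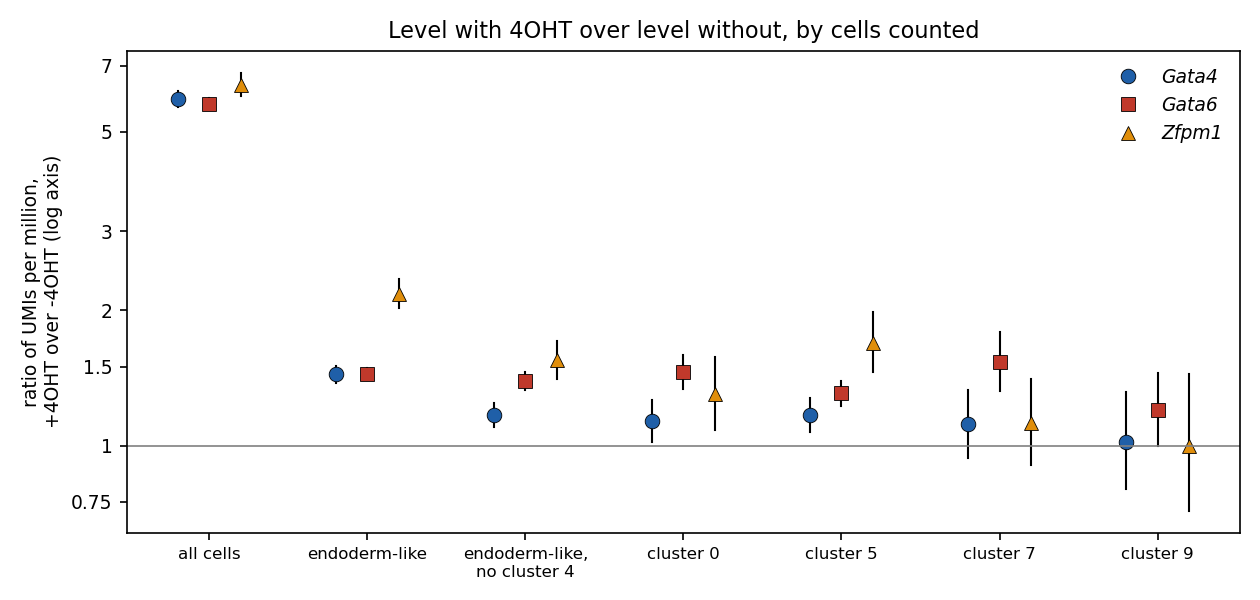
Ratio of CPM, +4OHT over -4OHT (log y axis), of Gata4, Gata6 and Zfpm1 in all cells, in endoderm-like cells, in these without cluster 4 and in clusters 0, 5, 7 and 9, with 95% intervals for counting error. The ratios near 6 over all cells shrink to between 1.0 and 1.69 inside single clusters.

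The other 3 members were sparse, and their largest levels were in the trophectoderm-like cells. These were 2.11% of cells and held 71 of 364 Gata2 UMIs (19.5%), 52 of 171 Gata3 UMIs (30.4%) and 10 of 18 Gata1 UMIs (55.6%). Gata2 was at 15.9 CPM there (12.4 to 20) against 2.05 CPM in endoderm-like and 0.706 CPM in epiblast-like cells. Gata3 was at 11.6 CPM (8.67 to 15.2) against 0.850 and 0.226 CPM, and Gata1 at 2.23 CPM (1.07 to 4.11) against 0.00904 CPM (1 UMI) and 0.0932 CPM (7 UMIs). In thinned cells (228 of 255) 4.82% had a Gata2 UMI and 7.89% a Gata3 UMI, against 1.65% and 0.775% in endoderm-like and 0.513% and 0.135% in epiblast-like cells. All 52 Gata3 UMIs and all 10 Gata1 UMIs of this cluster were in +4OHT cells, and the 37 -4OHT cells, at 0 UMIs, allow up to 7.24 CPM.

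The UMIs of Gata2 and Gata3 came from few of these cells. Of 255, with a median of 15606 UMIs, 20 had a Gata2 UMI (7.84%, against 2.74% in endoderm-like and 1.36% in epiblast-like cells, unthinned) and 27 a Gata3 UMI (10.6%, against 1.14% and 0.444%), and 42 had either. The endoderm members were also present, with Gata6 at 96.3 CPM, Zfpm1 at 43.1 CPM and Gata4 at 40.0 CPM, between the endoderm-like and the epiblast-like levels. Gata6 was at 105 CPM in the +4OHT cells of this cluster and 7.24 CPM in the 37 -4OHT cells, which held 3 Gata6 and 7 Gata4 UMIs in all. Of the 9 endoderm markers, 8 were at a higher level in the +4OHT cells, from Cubn (5.66 against 2.41 CPM) to Sparc (2980 against 753 CPM), and Amn was at 1.72 against 4.83 CPM. The part of endoderm RNA or doublets in these values was not tested.

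Over all cells, Gata2 was at 0.802 CPM in -4OHT and 3.02 CPM in +4OHT (3.76, 2.93 to 4.88), Gata3 at 0.331 and 1.47 CPM (4.43, 3.01 to 6.69) and Gata1 at 0.0702 and 0.117 CPM (7 and 11 UMIs, 0.590 to 5.07). In endoderm-like cells the ratio of Gata2 was 3.22 (1.93 to 5.73), but it was 1.52 without the Amn/Cubn cluster, with an interval (0.868 to 2.90) that held 1. That of Gata3 was 1.28 (0.733 to 2.40). Without the Amn/Cubn cluster it was 3.69 (0.988 to 31.0), on 79 UMIs in +4OHT against 2 in -4OHT. Gata1 had 1 UMI among 7781 endoderm-like cells. At this depth both intervals of Gata3 held 1, the second of them wide, and Gata1 could not be compared between conditions within endoderm-like cells.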

How the data were processed

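The bulk file holds raw read counts per gene, as deposited by the authors, for 48952 genes in 9 sorted libraries (NEBNext Ultra II Directional kit); 35 blank lines at its end were left out. For this table no source used here gives the aligner, the counter or the strand setting. The submitters' processing notes name mm10. The single-cell matrices hold raw UMI counts as deposited by the authors from Cell Ranger, with 32285 genes. The 6 genes and all gene lists were chosen with earlier results of these data known.

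Bulk counts were fitted with edgeR 4.0.16 in R 4.3.3 (filterByExpr, TMM, glmQLFit and glmQLFTest over all 9 libraries, 6 residual degrees of freedom, 14185 genes tested). All samples were mapped to groups by their titles. Replicates of a group differed by more than sampling noise. Replicate numbers paired DP and Pdgfra+ libraries (correlation of deviations 0.271, 0.477 and 0.321) and not the other comparisons. The numbers alone, not a stated batch, give the pairing.

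Cells needed 1000 detected genes and under 15% mitochondrial UMIs (5596 and 6665 cells, a count above that of the study's methods), scrublet doublets were removed, and scanpy 1.11.5 clustered the cells (2000 variable genes without the 6 members, 20 components, resolution 0.5). Clusters were named by a count of markers at 20 CPM or more (6 for endoderm-like or epiblast-like, 4 for two-cell-like or fibroblast-like, 3 for trophectoderm-like), a rule set after the clusters were seen. An epiblast-like cluster also had to have Sox17 under 20 CPM. Levels are CPM, from UMIs summed over cells. Intervals are exact (Poisson for levels, Clopper-Pearson for shares, conditional binomial for ratios) at 95%, and a count of 0 allows 3 counts. Named genes were the 6 members, Pou5f1, Pdgfra, the 3 called list genes with the largest change and at least 5 CPM in the higher group, the 3 genes most correlated with each member, and the leading genes of clusters. Other list genes are named from their role after their values were seen. Alternatives were DESeq2 1.42.0, RLE scaling, no filter or a stricter one (5 CPM in 3 libraries), the 6 libraries compared alone, a replicate block, each library left out and, for cells, stricter filters, doublet calls ignored, all barcodes, per-cell means, other resolutions and the removal of shared barcodes, the last chosen after seeing the data. Scripts were tested on simulated data.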

Additional observations from a re-analysis of the deposited data

How the results depend on the processing

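Gata4, Gata6 and Zfpm1 kept their direction and calls against Oct4+ in all 13 alternatives of each comparison, those that leave out a library included, with log2 differences between DP and Oct4+ of 5.40 to 6.40, 5.23 to 5.41 and 2.52 to 3.02. The number of members called between DP and Pdgfra+ stayed at 0. The count of all genes called there, 552, was 915 with DESeq2 and 1023 with no filter, and 57 to 728 on leaving out 1 library, lowest without Pdgfra+ replicate 3. Directions turned for differences near 0 between DP and Pdgfra+: without 1 library Zfpm1 ran from -0.041 to 0.11 (below 0 without Pdgfra+ replicate 1 or 3), and Gata5 from -0.64 to 0.10 (above 0 without DP replicate 2 or Pdgfra+ replicate 3). Gata2 between Oct4+ and Pdgfra+ ran from -1.35 to 0.33, above 0 only without Pdgfra+ replicate 3. Gata3 was filtered out when Pdgfra+ libraries were fitted with only those of Oct4+ or of DP. With the replicate block, DP against Pdgfra+ gave 598 called genes over 9 libraries and 713 over the 6 compared, no member was called, and no other call of a member changed in any comparison.

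The ratio over all cells was 5.04 (Gata4), 5.16 (Gata6) and 5.42 (Zfpm1) with per-cell means, and that of Gata6 was 5.59 over all barcodes and 5.57 with doublet calls ignored. In endoderm-like cells, Gata6 was 1.51 and Zfpm1 2.01 with per-cell means, and Gata4 was 1.51 and Gata6 1.5 with doublet calls ignored. In trophectoderm-like cells Gata2 was 11.0 CPM and Gata3 7.95 CPM with doublet calls ignored. At resolution 0.2 trophectoderm-like and fibroblast-like cells merged into 1 unnamed cluster. The causes were not tested.

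Depth limits Gata1, Gata2 and Gata3, whose group totals were at most 82 bulk reads. Cells came from 1 library per condition, so no single-cell ratio has a replicate check, and the sorts, the lines and the assays differ between bulk and single cells.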

Other observations

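Among -4OHT endoderm-like cells, 237 had a Pou5f1 UMI and 1157 had none, at a median of 18902 and 13454 UMIs per cell. Zfpm1 was lower in the cells with a Pou5f1 UMI, at 23.2 against 41.3 CPM (ratio 0.563, interval 0.456 to 0.689). Within the Amn/Cubn cluster alone (208 and 528 cells) it was at 22.6 against 30.4 CPM (0.742, 0.581 to 0.939). Gata4 was at 98.0 against 119 CPM over all of these cells (0.821, 0.741 to 0.909) and at a ratio of 0.978 within the cluster (0.868 to 1.10). Gata6 was at 239 against 224 CPM (1.06, 0.995 to 1.14), and its ratio within the cluster was 1.09 (1.01 to 1.18). The cofactor gene thus had the widest difference of the 3 in both splits. The cells come from 1 library, the intervals cover counting error only, and a cell with a Pou5f1 UMI is more often a deeply sequenced one.

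In the trophectoderm-like cluster, the 42 cells with a Gata2 or Gata3 UMI had Ascl2, a trophoblast factor, at 164 CPM against 54.6 CPM in the other 213. The other markers of trophectoderm compared, all among those that named the cluster, were also higher there. Cdx2 was at 83.6 against 54.0 CPM, Tfap2c at 67.3 against 31.8 CPM and Krt7 at 52.1 against 29.3 CPM. The endoderm markers compared did not share a direction. Sox17 was lower, at 114 against 165 CPM, and Col4a1 (1298 against 1129 CPM) and Sparc (3103 against 2688 CPM) were higher. Zfpm1 was at 79.2 against 33.8 CPM and Gata4 at 26.0 against 43.6 CPM, while Gata6 was at 99.8 against 95.3 CPM. Median depth was 22132 and 14861 UMIs, and these are values of a split by the members themselves, with no test.

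Gata4 stood above Gata6 per kilobase in bulk (173 against 59.1 CPM per kb in Pdgfra+ cells), and Gata6 above Gata4 in UMIs (309 against 155 CPM in endoderm-like cells). UMIs from the 3′ end are not divided by gene length, and the line and the assay both differ between these values, so they cannot be told apart.

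Runx1, a blood and endothelial factor of the list of GATA1 partners, followed the endoderm members in cells as in bulk. It was at 125 CPM in endoderm-like cells and 2.93 CPM in epiblast-like cells, while Ptprc, Hbb-y and Tal1 were each under 0.4 CPM in both. In endoderm-like cells it was at 152 CPM in -4OHT and 119 CPM in +4OHT, the opposite direction to Gata4, Gata6 and Zfpm1, and that difference between genes was not tested.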
